A study of Mus musculus with 12 samples.

Results

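Ebf1, Ebf2 and Ebf3 encode early B-cell factors, and their transcripts were followed in muscle progenitors sorted from the head and the trunk of mouse embryos. The members were the probe sets (groups of short probes that together report 1 transcript) that the array's annotation assigns to these 3 genes. There were 9 of them, 3 for each gene, among 20380 probe sets that stand for 1 of 12393 genes, and all 9 passed the filter on low signals, which asks for a signal above the array's median on at least 2 of the 12 arrays. The genes were selected on their log2 signals across the 6 groups, so these levels and their differences are given as a description, without a test.

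All embryos were of the ICR strain and carried Myf5Cre and RosaYFP. With these alleles a yellow fluorescent protein labels cells in which the promoter of Myf5, a gene of muscle determination, has been active, together with their descendants, so the sorted population is a lineage and not a cell type defined at the time of the sort. Fluorescent cells were sorted from the head and from the trunk at E9.5, E10.5 or E11.5 (days of embryonic development), and total RNA of each of the 6 groups was measured on 2 arrays. No group without the alleles entered the comparisons, and separate embryos, litters or pools are not named in the labels. At E10.5 the 2 arrays of a region differed in log2 signal of the X-inactivation transcript Xist. They read 7.35 and 12.29 in head and 6.37 and 12.01 in trunk, so they were not repeats of the same RNA. In the other groups the 2 arrays may be technical repeats.

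Early B-cell factors are transcription factors that bind DNA as dimers through a zinc-coordinating domain, next to a helix-loop-helix dimerisation domain, at a palindromic site. The founding member, EBF1, is required for B lymphocytes and was found independently as a factor of olfactory neurons. EBF2 is known from brown fat, bone and neurons, EBF3 from neurons and from relaxation of the diaphragm through the muscle calcium pump gene Atp2a1, and the single Ebf gene of sea squirts specifies pharyngeal muscle precursors.

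The region before the start of transcription is shown for the members that the promoter table holds, Ebf1 with 2 starts and Ebf3 with 1, so that the sequence can be set beside the expression of each. The 250 bases before each start are given 5′ to 3′ in the direction of transcription, from RefSeq on GRCm38.p6, with matches to the EBF palindrome (TCCC and GGGA with any 2 bases between them), to the E-box CANNTG and to the CArG box in capitals.
Ebf1, first start, chr11:44617850-44618099, plus strand: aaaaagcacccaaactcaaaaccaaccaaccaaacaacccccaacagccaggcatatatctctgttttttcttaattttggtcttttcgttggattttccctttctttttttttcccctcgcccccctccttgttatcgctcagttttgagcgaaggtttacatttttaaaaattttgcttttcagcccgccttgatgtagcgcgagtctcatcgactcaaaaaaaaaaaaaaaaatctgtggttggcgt
Ebf1, second start, chr11:44619978-44620227, plus strand: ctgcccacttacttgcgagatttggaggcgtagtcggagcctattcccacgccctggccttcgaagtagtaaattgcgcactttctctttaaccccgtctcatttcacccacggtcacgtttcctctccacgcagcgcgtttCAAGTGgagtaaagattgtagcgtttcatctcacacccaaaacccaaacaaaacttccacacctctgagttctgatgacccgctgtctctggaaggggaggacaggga
Ebf3, chr7:137314446-137314695, minus strand: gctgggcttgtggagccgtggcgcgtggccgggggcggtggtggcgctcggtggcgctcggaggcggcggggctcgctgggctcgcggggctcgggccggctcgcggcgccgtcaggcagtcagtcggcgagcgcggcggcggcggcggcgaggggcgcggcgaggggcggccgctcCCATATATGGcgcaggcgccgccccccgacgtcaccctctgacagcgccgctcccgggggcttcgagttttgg
On both strands the EBF palindrome had no match in these 3 windows, and 0.779% of 32851 RefSeq windows of the same length hold it. The E-box, the site of myogenic and other basic helix-loop-helix factors, matched once, in the second Ebf1 window, as CAAGTG from 108 bases before the start, and 66.2% of all windows hold an E-box. The CArG box, the site of serum response factor, matched once in the Ebf3 window, as CCATATATGG from 73 bases before the start. It occurs in 1.47% of all windows. The Ebf3 window also held 3 matches to the GC box GGGCGG, which 32.7% of windows hold, and TATAAA matched in none of the 3 windows against 12.4% of all. The windows differed in base composition, with a GC content of 40.0% and 52.0% for the Ebf1 starts and 80.0% for Ebf3, beside a median of 52.4% over all windows. A match describes these letters, not a bound site.

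The arrays were alike in level, with medians between 108.6 and 110.4 intensity units, and Pearson r between same-group arrays was 0.948 to 0.966 across probe sets, which are not independent replicates. Both trunk arrays of E9.5 stood apart on the leading principal component (31.5% of the variance), with scores of −50.1 and −43.9 against −8.9 to 26.9 for the rest. Replicate 1 of both regions at E10.5 had low log2 signals of the X-inactivation transcript Xist, 7.35 in head and 6.37 in trunk, against 11.89 to 13.10 elsewhere, so values at E10.5 that move without these arrays are also given without them. The region labels were checked on 13 genes, of which 12 were tested. Tbx1 was higher in head (log2 2.66 ± 0.14, SE from limma, adjusted p = 4.83e-07) and Hoxa9 was at least 41.9-fold higher in trunk, its 6 head arrays lying below the median; it passed the filter only through trunk arrays, so its test is not given. Myf5 lay above the array median on all 12 arrays. Without Hoxa9 and Hoxc8, which passed only through trunk arrays, 10 genes of this check remained. Averaged over the stages 1 was higher and 2 were lower in head at an adjusted p under 0.05 by limma, beside 10.5% of all genes in either direction. At E11.5, 2 were higher and 0 lower, beside 2.07% of all genes. Lbx1, also in this check, then read 403 and 496 in head and 52 and 86 in trunk.

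Ebf1 had a higher signal in head at every stage, without overlap of arrays. On the probe set of highest mean, 1416301_a_at, head arrays read 861 and 928 at E9.5, 1752 and 1357 at E10.5, and 914 and 1086 at E11.5, in intensity units. Trunk arrays read 179 and 152 at E9.5, 511 and 400.4 at E10.5, and 409.7 and 605 at E11.5. All 6 head arrays lay above all 6 trunk arrays. This was the case for 1.66% of the 7722 genes tested, and head lay above trunk without overlap at each of the 3 stages for 5.21%. Since the members were chosen with these values known, the shares are given for scale.

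The Ebf1 difference between the regions was log2 1.74 ± 0.14 (SE from limma, n = 6 arrays per region) over the mean of the 3 stages, a 3.33-fold higher signal in head. It narrowed with age, from 2.44 ± 0.24 at E9.5 (5.42-fold, n = 2 arrays per group) to 1.77 ± 0.24 at E10.5 (3.41-fold) and 1.0 ± 0.24 at E11.5. In trunk the signal was 3.02-fold higher at E11.5 than at E9.5 (log2 1.59 ± 0.24), most of it by E10.5 (1.45 ± 0.24). In head it was highest at E10.5 (0.79 ± 0.24 above E9.5) and then lower again by 0.63 ± 0.24, so that E11.5 and E9.5 differed by 0.16 ± 0.24, within 1 SE. Ordered by level, head at E10.5 came first and trunk at E9.5 last. Head at E11.5 and at E9.5 overlapped, as did trunk at E11.5 and at E10.5, and no other neighbours in this order did.

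**Figure D1:**
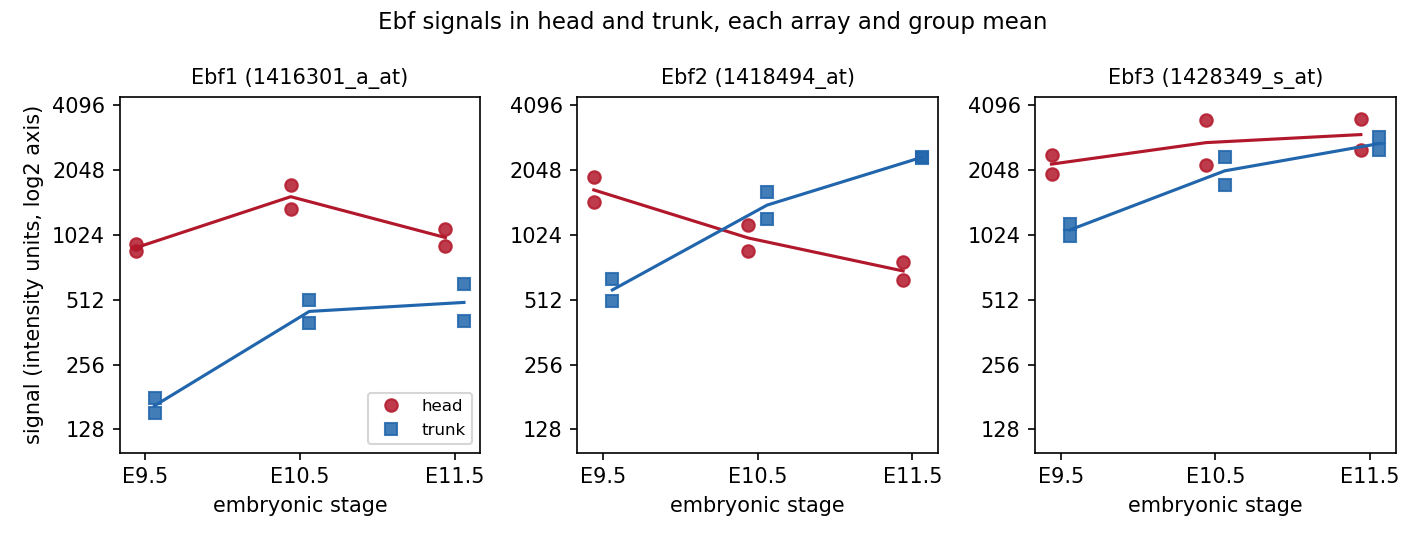
Signal of Ebf1, Ebf2 and Ebf3 on the probe set of highest mean, in intensity units on a log2 axis, by stage; red circles are head arrays, blue squares trunk arrays, and lines join the geometric means of the 2 arrays. Ebf1 lies higher in head at each stage, Ebf2 goes down in head and up in trunk and crosses between E9.5 and E10.5, and Ebf3 starts lower in trunk and meets head by E11.5.

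Ebf2 ran in opposite directions in the 2 regions. On the probe set of highest mean, 1418494_at, head arrays read 1894 and 1451 at E9.5, 865 and 1136 at E10.5, and 636 and 764 at E11.5. Trunk arrays read 641 and 505 at E9.5, 1626 and 1221 at E10.5, and 2361 and 2335 at E11.5. Head was thus above trunk at E9.5 and below it at both later stages, with no overlap at any stage. Of the genes tested 1.15% showed this order, and 3.24% were lower at E11.5 than at E9.5 in head and higher in trunk without overlap.

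From E9.5 to E11.5 the Ebf2 signal fell by 1.25 ± 0.22 on the log2 scale in head, a factor of 2.38, and increased by 2.05 ± 0.22 in trunk, a factor of 4.13 (SE from limma, n = 2 arrays per group). The change in head minus that in trunk was log2 −3.30 ± 0.31. Head minus trunk went from 1.54 ± 0.22 at E9.5 (2.91-fold higher in head) through −0.51 ± 0.22 at E10.5 to −1.75 ± 0.22 at E11.5 (3.37-fold higher in trunk). The E10.5 difference was −0.10 without the replicate 1 arrays of that stage, and over the mean of the 3 stages the regions differed by −0.24 ± 0.13, because the stages have opposite signs. In the order of levels trunk at E11.5 was highest and trunk at E9.5 lowest. Head at E9.5 overlapped with trunk at E10.5, and head at E11.5 with trunk at E9.5.

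Ebf3 was present in both regions at all stages and differed between them mainly at E9.5. On the probe set of highest mean, 1428349_s_at, head arrays read 2416 and 1975 at E9.5, 3482 and 2169.7 at E10.5, and 2527 and 3549.7 at E11.5. Trunk arrays read 1156 and 1012 at E9.5, 2360.2 and 1750.2 at E10.5, and 2931 and 2528 at E11.5. Head lay above trunk without overlap at E9.5, as for 22.3% of the genes tested, and the regions overlapped at E10.5 and at E11.5. The arrays of head at E10.5 stood further apart than those of any other group (SD 0.48 on the log2 scale, n = 2).

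Head minus trunk for Ebf3 was log2 1.01 ± 0.24 at E9.5 (2.02-fold), 0.44 ± 0.24 at E10.5 and 0.14 ± 0.24 at E11.5, and 0.53 ± 0.14 over the mean of the stages (1.44-fold; SE from limma). Without head E10.5 replicate 1 the E10.5 value was 0.09. Trunk was 2.52-fold higher at E11.5 than at E9.5 (log2 1.33 ± 0.24) and head 1.37-fold (0.46 ± 0.24). Both regions were higher at E11.5 without overlap, as were 12.6% of the genes tested. In the order of levels head at E11.5, head at E10.5 and trunk at E11.5 overlapped in turn, head at E9.5 overlapped with trunk at E10.5, and trunk at E9.5 lay below all others.

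The other probe sets of each gene are further measures of the same RNA samples. For Ebf1, 1448293_at gave head minus trunk values of 1.41 ± 0.30, 0.87 ± 0.30 and 0.89 ± 0.30 at E9.5, E10.5 and E11.5, and 1416302_at gave 1.94 ± 0.34, 1.82 ± 0.34 and 1.20 ± 0.34. All 3 Ebf1 probe sets thus had head above trunk at each stage without overlap, but the narrowing seen on 1416301_a_at was smaller on the other two: the change in head minus that in trunk was −1.44 ± 0.33 there against −0.52 ± 0.42 and −0.75 ± 0.48. On 1448293_at the head arrays of E11.5 read 551 and 1112, and on 1416302_at 378 and 745, replicate 2 being the higher array on both.

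All 3 Ebf2 probe sets went from higher in head at E9.5 to higher in trunk at E11.5 without overlap, an order that 3.99% of all genes had. Head minus trunk was 1.40 ± 0.29, −0.46 ± 0.29 and −1.51 ± 0.29 over the stages on 1449102_at, and 0.78 ± 0.34, −0.71 ± 0.34 and −1.73 ± 0.34 on 1449101_at. The change in head minus that in trunk was −2.91 ± 0.41 and −2.52 ± 0.49. On 1449102_at the regions overlapped at E10.5, with 194 and 313 in head and 399.9 and 287 in trunk. The signals of 1449101_at lay between 41 and 155, around the array median, so its log2 values are not measured folds.

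The Ebf3 probe sets differed in sign at E10.5. Head minus trunk on 1452751_at was 0.67 ± 0.19, 0.40 ± 0.19 and 0.30 ± 0.19, with no overlap at any stage. On 1460666_a_at it was 0.57 ± 0.28, −0.52 ± 0.28 and −0.04 ± 0.28, with trunk above head at E10.5. All 3 had head above trunk at E9.5 and trunk higher at E11.5 than at E9.5, without overlap, the latter seen for 28.4% of all genes. The probe set of highest mean carries the suffix _s, which the maker of the array gives to sets that may match transcripts of more than 1 gene, so which transcripts it reads is uncertain. The suffix _a, on 1416301_a_at and 1460666_a_at, stands for sets that match several transcripts of a gene.

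**Figure D2:**
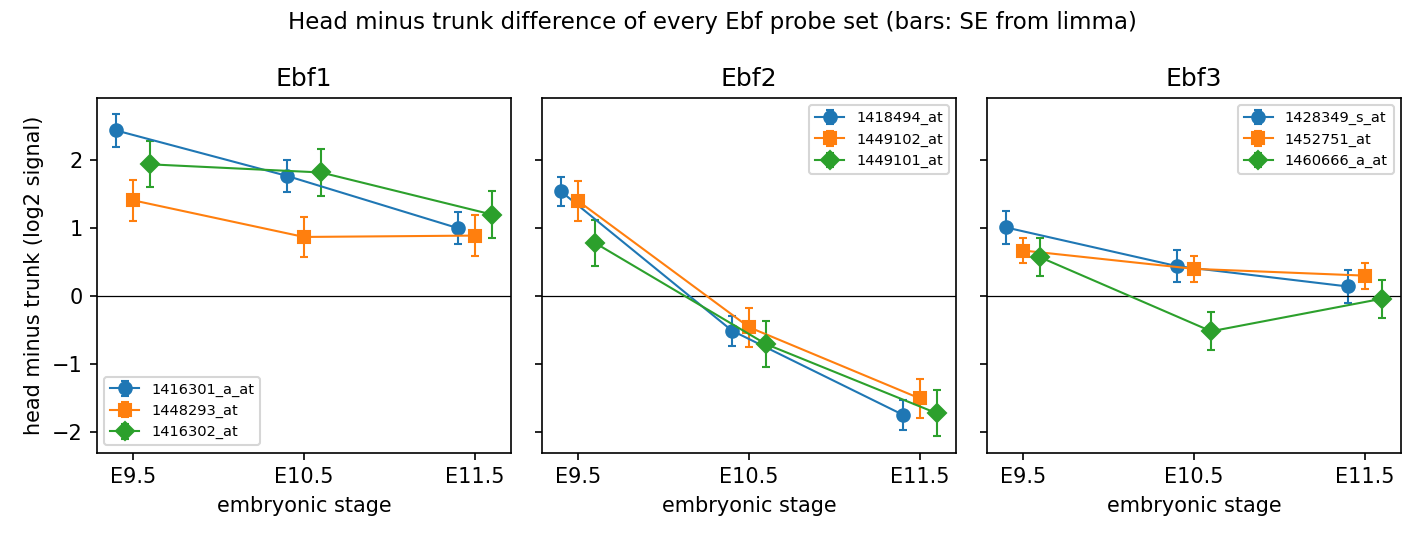
Head minus trunk in log2 signal at each stage for the 3 probe sets of each gene; points are differences of group means of 2 arrays and bars the SE from limma. The Ebf1 sets lie above 0 throughout, the Ebf2 sets go from above 0 at E9.5 to between −1.75 and −1.51 at E11.5, and the Ebf3 sets lie between 0.57 and 1.01 at E9.5 and disagree in sign at E10.5.

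The genes whose log2 signal over the 12 arrays was most like that of each member were found by Pearson r among the genes tested, as a measure of likeness in these arrays, which share groups. The genes most like Ebf1 were Isl1 (r = 0.98), a LIM-homeodomain factor of pharyngeal mesoderm and neurons, Igfbp2 (0.97), which binds insulin-like growth factors, Rspo2 (0.96), a secreted enhancer of Wnt signalling, Ntng1 (0.95), a netrin of axon guidance, and Plk2 (0.95), a polo-like kinase. Isl1 read 2875 to 5482 on the head arrays and 154 to 1025.5 on the trunk arrays, with trunk at E9.5 lowest, as for Ebf1. The most opposite were Morc4 (r = −0.95), Gphn, the receptor anchor gephyrin (−0.94), and Cd36, a fatty acid and scavenger receptor (−0.94). Cd36 read 442 and 306 in trunk at E9.5 and at most 88 in head, below the array median. It passed the filter only through 4 trunk arrays, so the filter itself favoured a direction opposite to that of Ebf1. Ranked by group means, Isl1 had rank 13 (r = 0.98 over 6 groups) and Ntng1 rank 3.

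Ebf2 was most like Lum (r = 0.97), the collagen-binding proteoglycan lumican. Lum read 779 and 607 in head at E9.5 and 203 and 266 in head at E11.5, against 175 and 163 in trunk at E9.5 and 1137 and 1160.0 in trunk at E11.5. It was thus above trunk in head at E9.5 and below it at E11.5, as Ebf2 was. Next came the POU factor gene Pou3f1 (0.90), the small GTPase gene Rab10 (0.89), the coatomer gene Copz2 (0.87) and Epb41l4a (0.87). Rab10 varied little, from 3308 to 3976. The most opposite were Mrpl12 of the mitochondrial ribosome (−0.93), Ndufa7 of respiratory complex I (−0.85) and the splicing factor gene Sart3 (−0.85).

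Ebf3 was most like the adhesion molecule gene Alcam (r = 0.94), Prkg1, a cGMP-dependent kinase (0.93), Flna, the actin cross-linker filamin A (0.93), Dop1b (0.93) and the syntaxin gene Stx7 (0.93). The most opposite were the nucleolar gene Npm1 (−0.97), Pomt2 (−0.92) and Hikeshi (−0.92). Alcam read 282 and 317 in trunk at E9.5 and 834 to 1989 elsewhere, so that trunk at E9.5, the group that stood apart on the leading principal component, was lowest for Alcam as for Ebf3.

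**Figure D3:**
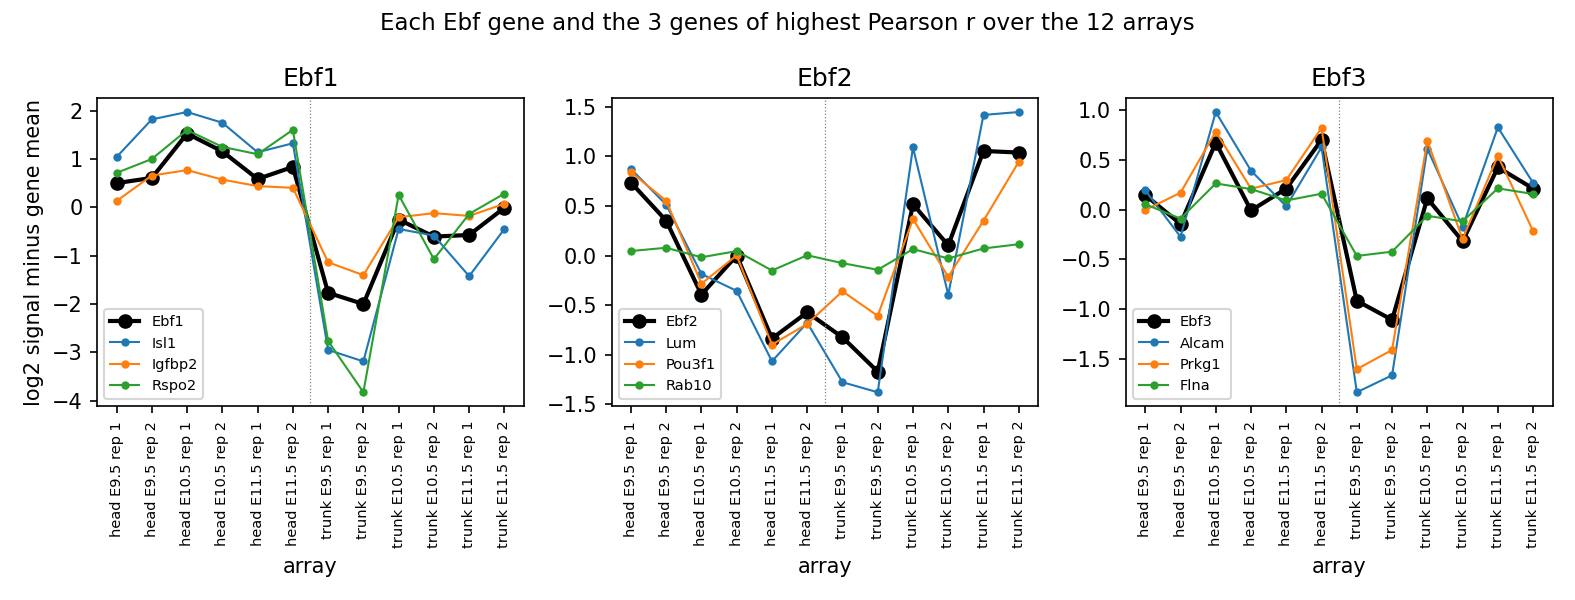
Log2 signal minus the gene's own mean on each of the 12 arrays (head left of the dotted line, trunk right) for Ebf1, Ebf2 and Ebf3 in black and the 3 genes of highest Pearson r in colour. Isl1 follows Ebf1 with a low on both trunk E9.5 arrays, Lum follows Ebf2 down in head and up in trunk, and Rab10 spans a much smaller range than Ebf2.

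A gene that passes the filter on low signals only through arrays of 1 region is favoured by that filter to differ between the regions. Such genes were therefore left out of the counts of region differences below, a choice made after seeing the data, and get no p for them. Of 15 listed cofactors and interacting factors of the early B-cell factors 11 were tested, and of the 10 that remained 0 were called in either direction averaged over the stages, with 2 at an unadjusted p under 0.05 (limma, Benjamini-Hochberg adjustment over all genes, called at a threshold of 0.05), a comparison in which 10.5% of all genes were called, 6.85% as higher and 3.61% as lower. Their median was log2 0.03, beside 0.00 for all genes. The one left out was Runx1, which acts with EBF1 in B-cell development. It read 137 to 634 in head and 36 to 108.3 in trunk, where all 6 arrays lay below the array median, so its signal was at least 3.01-fold higher in head. At E10.5 the transcription factor gene Ets1 was higher in head by limma (1.78 ± 0.43, adjusted p = 0.0381; 4.52% of all genes called), with 1959.8 and 1354 in head and 582 and 387 in trunk. The call ended under 6 alternatives, among them without both E10.5 replicate 1 arrays (adjusted p = 0.479) and without head E10.5 replicate 1 (adjusted p = 0.256). Averaged over the stages it did not pass (0.38 ± 0.25, adjusted p = 0.38). Zfp423, a zinc finger partner of the family, read 436 to 689 over all arrays and did not pass (−0.04 ± 0.13, adjusted p = 0.896). Zfp521, its relative, did not pass over the mean of the stages (−0.24 ± 0.10, adjusted p = 0.169), nor did the E-protein gene Tcf12 (−0.16 ± 0.05, adjusted p = 0.0625). Tcf12 passed as lower in head with the mean of its probe sets (−0.30, adjusted p = 0.0296) and without head E9.5 replicate 1 (−0.20, adjusted p = 0.0191).

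Over time, Zfp521 rose in trunk from E9.5 to E11.5 (0.64 ± 0.18, adjusted p = 0.0325 by limma; 13.4% of all genes called), from 1237 and 1512 to 2282 and 1997, and its value in head was −0.19 ± 0.18 (adjusted p = 0.652). The difference between these changes did not pass (−0.83 ± 0.25, adjusted p = 0.153; 1.48% of all genes called). Without trunk E9.5 replicate 1 the trunk change did not pass (adjusted p = 0.233). Runx1 rose in head (1.79 ± 0.28, adjusted p = 0.00336; 4.78% of all genes called) by 3.45-fold, a call that ended with the mean of its probe sets (1.0, adjusted p = 0.113). In trunk all 4 of its arrays lay below the array median, so no change was measured there: the call on the signals as deposited (1.39 ± 0.28, adjusted p = 0.00658) ended with signals raised to the median (0.00, adjusted p = 0.997) and with the mean of its probe sets (0.51, adjusted p = 0.352).

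Listed genes of 3 other tissues where the family acts, only some of them known targets, were mostly near background. Of 17 early B-cell genes 16 were on the array and 2 were tested, Cd24a and Igll1, neither of which was called in any of the 7 comparisons. Cd24a was an exception in level, with 10319 to 12317 over all arrays. The defining genes Cd79a, Cd79b, Pax5 and Blk lay below the array median on all 12 arrays, with 83 the highest value among them. Among 7 olfactory neuron genes Omp also lay below the median throughout, and the 1 tested, the adenylyl cyclase gene Adcy3, did not pass in any comparison (0.03 ± 0.19 over the mean of the stages, adjusted p = 0.944). Of 14 adipocyte genes 6 were tested, and of the 5 that remained 1 was higher in head and 0 were lower (median log2 0.04). It was Cebpb (0.87 ± 0.21, adjusted p = 0.0215), by at least 1.41-fold since 6 of its arrays lay at or below the median, and the call ended without trunk E9.5 replicate 2 (adjusted p = 0.064) and without both E10.5 replicate 1 arrays (adjusted p = 0.133). The one left out was Cebpd, above the median on 3 arrays, all of head. Pparg, the central adipocyte regulator, read at most 12.6. Lpl, also of the adipocyte list, was another exception in level, with 1665.6 to 2208.8 and above the median on all 12 arrays.

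Among 10 tested myogenic regulators and muscle calcium genes, 1 was higher and 1 lower in head when the stages were averaged (median log2 0.22). Mef2d was the higher (0.60 ± 0.12, adjusted p = 0.00561, or 0.0802 with the mean of its probe sets) and Myog, which drives terminal differentiation, the lower (−1.01 ± 0.21, adjusted p = 0.00807), though with signals raised to the array median Myog did not pass (adjusted p = 0.246). The Myog average joins stages whose differences have opposite signs. At E9.5 Myog read 40 and 25 in head and 112 and 243 in trunk. At E11.5 it read 1581 and 1318 in head and 825 and 1127 in trunk. That difference was not called, as 0 of the 10 genes were called in either direction at E11.5. From E9.5 to E11.5, 6 of 10 rose and none fell in head (median log2 1.48), and 6 rose and none fell in trunk (median 1.92). Of all genes 4.78% were called in head and 13.4% in trunk, with medians of 0.00 and −0.01. Myod1 rose in both regions, at least 20.4-fold in head (log2 4.92 ± 0.30, adjusted p = 6.9e-06) and at least 9.39-fold in trunk (3.84 ± 0.30, adjusted p = 1.34e-05), its E9.5 arrays lying below the median.

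Atp2a1, the calcium pump gene that EBF3 regulates in the diaphragm, read 98 and 64 in head at E9.5 and 271 and 178 at E11.5, and 48 and 34 in trunk at E9.5 and 109 and 116 at E11.5. It rose in head (1.47 ± 0.36, adjusted p = 0.0394), where the E9.5 arrays lay below the median, so by at least 1.99-fold. In trunk the log2 value was 1.47 ± 0.36 (adjusted p = 0.0184) with all but 1 of the 4 arrays at or below the median, and with signals raised to the median it was 0.05 (adjusted p = 0.934). Leaving out single arrays ended both calls, at most to an adjusted p of 0.237 in head (head E11.5 replicate 1 omitted) and 0.106 in trunk (trunk E9.5 replicate 2 omitted). The regions did not differ over the mean of the stages at the threshold (0.50 ± 0.21, adjusted p = 0.164).

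Regulators of pharyngeal mesoderm, from which branchial head muscles form, moved both ways between the regions. Of 13 tested 9 remained, and averaged over the stages 4 were higher and 3 lower in head (median log2 0.24). The 4 left out, Tcf21, Lhx2, Nkx2-5 and Tlx1, lay above the median on 3 to 6 head arrays and on 0 trunk arrays, and the median over all 13 was 2.21. Isl1 was 8.07-fold higher (3.01 ± 0.17, adjusted p = 8.55e-07), Tbx1 at least 5.43-fold and Msc at least 6.61-fold (3.04 ± 0.18, adjusted p = 8.55e-07). The 3 called lower were Foxc1, Foxc2 and Islr. Foxc1 read 261.9 to 976.3 in head and 993 to 1296.5 in trunk, and Foxc2 198.6 to 549.9 and 582.1 to 2448.2. Islr read 68 to 345 in head and 184.6 to 480.2 in trunk. Among those left out, the signal of Tcf21 was at least 5.46-fold and that of Lhx2 at least 2.25-fold higher in head. Like Ebf1, Isl1 narrowed its difference with age, from 4.49 ± 0.30 at E9.5 (adjusted p = 6.04e-06) to 2.17 ± 0.30 at E11.5 (adjusted p = 0.00373), as it rose in trunk (2.13 ± 0.30, adjusted p = 0.000776) and not in head (−0.20 ± 0.30, adjusted p = 0.806). Isl1 was the gene most like Ebf1 on these arrays, so its tests are no separate support for the Ebf1 pattern. Of the 13 pharyngeal genes tested 6 rose and 1 fell in trunk from E9.5 to E11.5 (median 1.26), beside 13.4% of all genes called. In head 2 rose and none fell (median −0.20), beside 4.78% called. The 13 include the 4 genes with 0 trunk arrays above the median, for which no change in trunk was measured. The trunk rise of Tbx1 did not pass with signals raised to the array median (0.60, adjusted p = 0.144 by limma). It was 1.01 without trunk E11.5 replicate 2.

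The mesenchyme and tendon list holds Lum, the gene most like Ebf2. Of 14 tested genes, averaged over the stages, 7 were lower in head and none higher (median log2 −0.62), led by the somite factors Meox2 (−2.08 ± 0.13, adjusted p = 9.07e-07) and Meox1 (−2.97 ± 0.19, adjusted p = 1.29e-06, at least 7.3-fold), with Twist1 (−1.51 ± 0.18, adjusted p = 0.000186) and the growth factor receptor Pdgfra (−1.23 ± 0.16, adjusted p = 0.000379). At E9.5, 3 were higher and 3 lower (5.92% of all genes called), and at E11.5 none was higher and 6 were lower (2.07% called). Lum was higher in head at E9.5 (2.02 ± 0.37, adjusted p = 0.00594) and lower at E11.5 (−2.31 ± 0.37, adjusted p = 0.00769). Since Lum was singled out by its likeness to Ebf2 on these arrays, its tests are no separate support for the Ebf2 pattern. It fell in head (−1.57 ± 0.37, adjusted p = 0.03) and rose in trunk (2.76 ± 0.37, adjusted p = 0.000514), where Postn (3.44 ± 0.24, adjusted p = 7.58e-06), Prrx1 (2.66 ± 0.27, adjusted p = 0.000106) and Dcn (3.86 ± 0.43, adjusted p = 0.00017, at least 7.79-fold) rose too. Single omissions ended the call for Lum at E11.5 (adjusted p = 0.0617 without head E11.5 replicate 1) and for its fall in head (adjusted p = 0.176 without head E9.5 replicate 1).

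In bulk samples such as these, fewer cells of a type and less RNA per cell cannot be told apart, and markers of other cell types moved beside the members. The 16 neuronal genes on the array, from cells that express Ebf genes elsewhere, summed to 6647 to 11869 units in head and 1309 to 1891 in trunk at E9.5. At E11.5 they summed to 11158 to 18642 in head and 7644 to 9731 in trunk. In trunk at E9.5, 10 of the 16 lay at or below the array median on both arrays. Of 15 tested, 12 were higher in head at E9.5 and none lower (median log2 2.35), beside 5.92% of all genes called. Among them were Neurod1, by at least 22.2-fold (4.75 ± 0.29, adjusted p = 3.53e-06), and Dcx, by at least 9.68-fold (4.0 ± 0.33, adjusted p = 2.09e-05). At E10.5 and at E11.5 only 1 of the 15 was called higher and 0 lower, beside 4.52% and 2.07% of all genes. From E9.5 to E11.5 10 rose in trunk and none fell, beside 13.4% of all genes called.

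The 19 mesenchymal genes summed to 12535 to 14326 units in head and 17256 to 18940 in trunk at E9.5, and to 17113 to 17569 in head and 31213 to 33536 in trunk at E11.5. The 14 endothelial genes summed to 2540 to 6893 units over the head arrays and to 1021 to 1956 over the trunk arrays, and of 10 that remained of 13 tested 9 were higher in head averaged over the stages and 0 were lower. For 12 epithelial genes the sums were 7913 to 8802 in head and 2635 to 3055 in trunk at E9.5 and 1966 to 1980 and 1018 to 1419 at E11.5, and 8 of the 10 that remained were higher in head averaged over the stages. Of 12 macrophage genes only 4 passed the filter on low signals. All 4 were higher in head averaged over the stages, and 2, 3 and 0 of them at E9.5, E10.5 and E11.5. Of the 5 that remained of 8 tested neural crest genes 1 was higher averaged over the stages. In that comparison 6.85% of all genes were called higher. The part of these cell types in the Ebf signals was not tested.

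**Figure D4:**
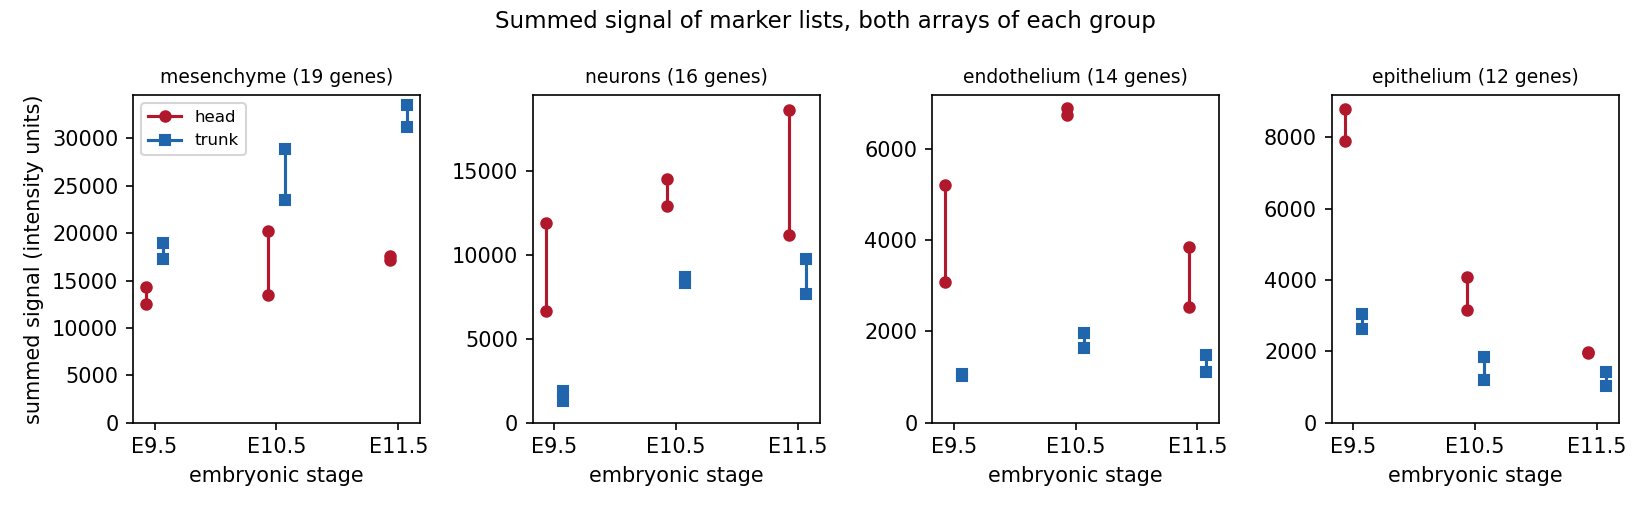
Summed signal, in intensity units, of the genes of 4 marker lists by stage; red circles are head and blue squares trunk, and a line joins the 2 arrays of a group. The mesenchymal sum goes up in trunk to 31213 to 33536 units at E11.5, and the neuronal sum is lowest in trunk at E9.5, at 1309 to 1891 units.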

How the data were processed

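The values the authors deposited are intensity signals per probe set, on a linear scale. MAS5 and Affymetrix Expression Console are named in the submitters' processing notes, and no version or later normalization is given in the sources used here. Per the labels' protocols, total RNA was extracted with QIAzol, amplified, and labelled as biotinylated cRNA. Signals were used as deposited and log2 was taken.

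Of 22690 probe sets, 64 controls, 691 with several genes and 1555 without one were left out. Of the remaining 20380, 11739 lay above the array median on at least 2 arrays. The one of highest mean stood for a gene, which left 7722 genes. Differences were fitted with limma 3.58.1 in R 4.3.3 (1 mean per group, spread moderated with a trend on signal, prior degrees of freedom 5.87, residual 6) by two-sided tests, with Benjamini-Hochberg adjustment over all genes tested and a threshold of 0.05 for a call. Other probe sets of the members were fitted with all probe sets that passed. Fitted adjusted p-values measure the spread between arrays, which outside E10.5 may be technical, and their precision is limited by how few arrays there are. A fold is written as a bound where an array lay below the array median: signals were raised to that median. Members, lists and alternatives were chosen with earlier results of these data known. List genes are named by a rule: up to 4 of smallest p in a list and comparison, plus Zfp423, Zfp521, Tbx1, Isl1, Msc, Tcf21, Myf5, Myod1 and Atp2a1, plus the 5 genes most and 3 least like a member. Xist, Nkx2-5, Tlx1, Cd79a, Cd79b, Pax5, Blk, Omp and Pparg lie outside the rule and, like Lpl, Foxc1, Foxc2 and Islr, were named after their values were seen. Replicates sharing a number were not taken as pairs. Alternatives were other normalizations, probe set choices, filters and floors, no trend, a replicate block, and omitted arrays.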

Additional observations from a re-analysis of the deposited data

Results flagged for a closer look

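Ebf2 moved in opposite directions in the regions: every head array of E11.5 lay below every head array of E9.5, and every trunk array of E11.5 above every one of E9.5. The change in head minus that in trunk was log2 −3.30, and this difference was not tested, since the gene was chosen with these values known.

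Head and trunk differed in how listed genes changed between E9.5 and E11.5, by limma's interaction contrast (1.48% of all genes called), for the pharyngeal regulators Isl1 (head minus trunk change log2 −2.33, adjusted p = 0.0199) and Tbx1 (−1.68, adjusted p = 0.031). It differed for the mesenchymal genes Lum (−4.33, adjusted p = 0.0017), Postn (−2.98, adjusted p = 0.00125), Meox1 (3.34, adjusted p = 0.00415) and Meox2 (2.24, adjusted p = 0.00391). Isl1 and Lum are the genes most like Ebf1 and Ebf2 on these arrays, so their values are not separate from the patterns of these members. The muscle factors Myog (2.95, adjusted p = 0.0133) and Myf5 (1.45, adjusted p = 0.0307) had the higher change in head, and the neuronal genes Neurod1 (−3.34, adjusted p = 0.0017) and Dcx (−3.63, adjusted p = 0.00254) had the lower change in head. For Lhx2 the value was −4.91, but the gene passed the filter on low signals only through head arrays and lay at or below the array median on 6 of the 8 arrays behind the value, so this is neither a test nor a measured fold. Leaving out single arrays ended the calls of Isl1 (adjusted p = 0.0749, head E9.5 replicate 2 omitted), Tbx1 (adjusted p = 0.132 without trunk E11.5 replicate 2), Myog (adjusted p = 0.0589 without trunk E11.5 replicate 1) and Myf5 (adjusted p = 0.111, the same array). With signals raised to the array median, Tbx1 (adjusted p = 0.202) and Myog (adjusted p = 0.337) did not pass.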

How the results depend on the processing

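No member's difference that was larger than its replicate SD changed sign under the alternatives run. Of 462 values for the members under alternatives, 435 moved by less than the replicate SD. Many of them could not move. Dropping the filter or the trend, a replicate block, raised signals, and omitting an array outside the groups compared all leave a member's difference as it is. The share therefore does not measure how robust the values are, and the probe set choices moved them most often. With the mean of a gene's probe sets, Ebf1 was 1.48 averaged over the stages, 1.93 at E9.5 and 1.49 at E10.5, 1.14 for its change in trunk and −0.90 for the difference of the changes; Ebf2 was 1.24 at E9.5, 1.64 for its change in trunk and −2.91 for the difference of the changes; and Ebf3 was 0.10 at E10.5. Without probe sets of the suffixes _s, _x and _a, Ebf1 was 1.06, 1.41 and 0.87 in the same 3 comparisons, 0.84 in trunk and −0.52 for the difference, and Ebf3 was 0.67 at E9.5, 1.02 for its change in head and −0.37 for the difference. With log2 of signal plus 50, Ebf1 at E9.5 was 2.13. Without both E10.5 replicate 1 arrays, Ebf2 at E10.5 was −0.10. Leaving out each array in turn gave Ebf1 0.72 to 1.28 at E11.5, 1.31 to 1.87 for its change in trunk and −1.72 to −1.16 for the difference, and Ebf3 0.09 to 0.78 at E10.5. For Ebf3 at E11.5, whose value lay within its SD, it gave −0.11 to 0.38, with a changed sign when head E11.5 replicate 2 was omitted.

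Counts of genes called by limma fell without both E10.5 replicate 1 arrays to 446 (from 808) over the mean of the stages, to 34 (from 349) at E10.5 and to 63 (from 114) for the difference of the changes. Without an intensity trend 192 were called at E10.5. Leaving out each array gave 534 to 912 over the mean of the stages, 238 to 452 at E9.5 (457 with all arrays), 64 to 484 at E10.5, 56 to 171 at E11.5 (from 160), 173 to 395 for head over time (from 369), 434 to 1078 for trunk over time (from 1038) and 57 to 120 for the difference. The lowest counts came without trunk E10.5 replicate 2, trunk E9.5 replicate 1, trunk E10.5 replicate 2, trunk E11.5 replicate 1, head E9.5 replicate 1, trunk E9.5 replicate 1 and trunk E9.5 replicate 1, in that order. The cause was not tested. Raising signals to the array median moved the share of higher calls for the difference of the changes from 18.4% to 35.1%.

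For arrays that share a replicate number, r of the deviations ran from −0.30 to 0.17 over 15 pairs of groups, and 2 exceeded 0.1. Most of these pairs join different stages. Head and trunk of the same stage gave 0.01 at E9.5, 0 at E10.5 and −0.1 at E11.5. At E10.5 the array of lower Xist log2 signal had the same replicate number in head (7.35) and in trunk (6.37). Whether head and trunk arrays of a stage came from the same embryos was not tested. These r values cannot decide it, as each group has only 2 arrays. With a replicate block 766 genes were called for the regions averaged over stages and 294 at E10.5, and the members' differences stayed as they were, since the design is balanced. Of the 715 values of named genes under alternatives, 44 lost and 2 (both of Tcf12) gained a call and 0 were reversed.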
